A study of Homo sapiens with 42 samples.

Results

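The comparison described here sets SEM cells carrying the short hairpin sh2, directed against NSD2, beside SEM cells carrying a non-targeting hairpin (NT). It was chosen by sample label, and it holds 6 of the 42 samples of the series, 3 libraries per arm. RNA was sequenced from 5 lines of acute lymphoblastic leukaemia of the B lineage (B-ALL). RS4;11 (titled RS411), RCH-ACV (titled RCH) and SEM received hairpins, and the others received added wild-type or mutant NSD2. SEM is an established line with a KMT2A-AFF1 fusion and is known to carry the NSD2 substitution E1099K, which the series title names, so both arms share that background. A further SEM arm is titled sh5, with no description in the series text, and it is given beside sh2. Nothing in the labels says that replicates came from separate transductions or cultures, so the spread behind each p-value may be partly or wholly technical. The 9 SEM libraries held 32583013 to 39562010 reads assigned to genes, with 0.072 to 0.094% on mitochondrially encoded genes. Levels are in CPM, the reads of a gene scaled to a common library total after TMM scaling, which compare 1 gene between libraries and not genes with each other.

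NSD2 is a histone methyltransferase that places the dimethyl mark on lysine 36 of histone H3 across broad stretches of chromatin, where it opposes the repressive trimethyl mark that Polycomb repressive complex 2 (PRC2) lays on lysine 27. E1099K lies in its catalytic SET domain, raises its activity and recurs in childhood B-ALL. Lowering NSD2 in a line with this substitution addresses which transcripts depend on it.

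NSD2 itself was measured first, as the check of the hairpin. It stood at 332, 331 and 362 CPM in the NT libraries and at 166, 173 and 180.2 CPM in the sh2 libraries. The arms did not overlap, and the sh2 mean was 50.6% of the NT mean. The log2 fold change was -0.99 ± 0.04 (standard error, adjusted p = 1.12e-12, edgeR quasi-likelihood test with Benjamini-Hochberg adjustment over all genes). An exact two-sided permutation test of the 6 levels gave p = 0.1, the smallest value that 3 against 3 can give. The sh5 libraries held 133, 146 and 147 CPM, or 41.6% of the NT mean (log2 -1.28), so the lowest levels were in the sh5 arm.

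Of 17042 genes tested in SEM, 6455 (37.9%) were called at an adjusted p under 0.05, 3294 (19.3%) higher with sh2 and 3161 (18.5%) lower. The directions differed in size. At least 2-fold higher were 354 genes (2.08%) and at least 2-fold lower were 1026 (6.02%), and at 8-fold or more the counts were 26 higher (0.153%) and 232 lower (1.36%). The NT and sh2 libraries did not overlap, with sh2 higher, in 19.9% of the genes and, with sh2 lower, in 19.5%. The median log2 change was 0.29 among genes called higher and -0.57 among genes called lower. Of the genes called lower, 43 went from a mean of at least 5 CPM with NT to under 1 CPM with sh2, and 4 genes called higher went the other way. The near-equal split of calls depended on the scaling: with upper-quartile factors 2530 genes were higher and 3839 were lower, while the median log2 change of all genes moved from 0.01 to -0.04.

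**Figure D1:**
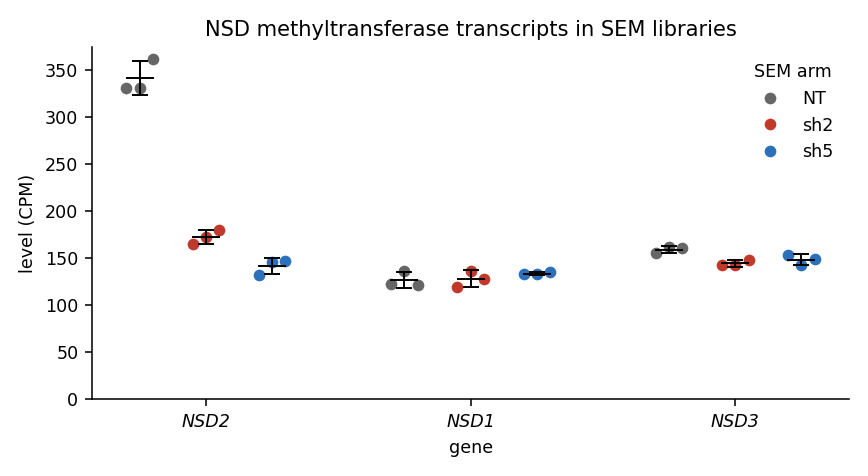
Levels (y axis, CPM from 0) of NSD2, NSD1 and NSD3 (x axis) in the 3 SEM arms, each point 1 library, with the mean and SD of 3 libraries as bar and whiskers. NSD2 sits at 331 to 362 CPM with NT, 166 to 180.2 CPM with sh2 and 133 to 147 CPM with sh5, while the arms of NSD1 overlap.

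**Figure D2:**
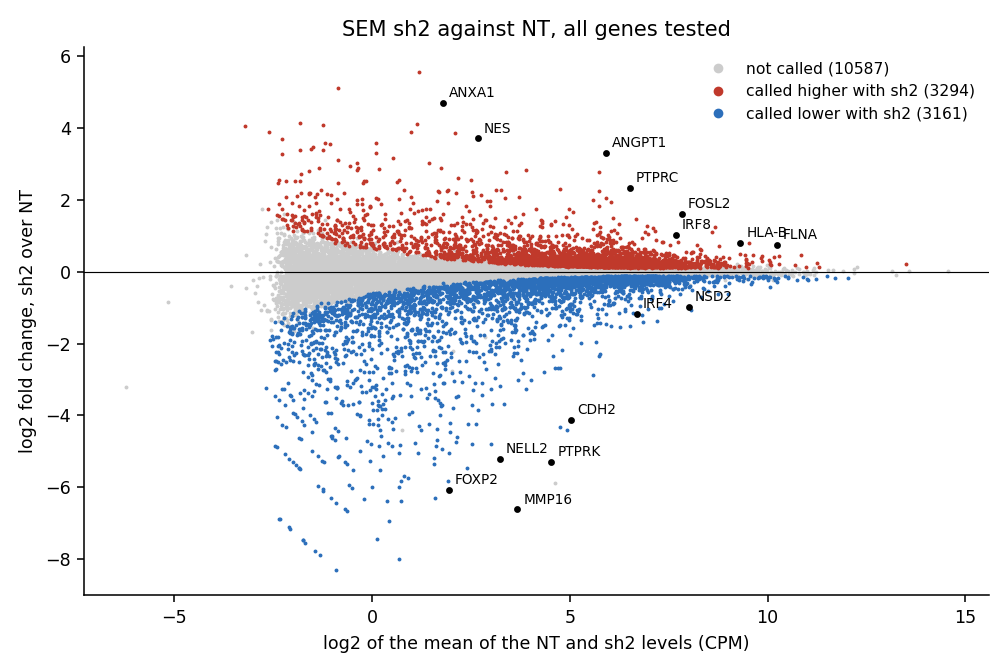
Each point is 1 of the 17042 genes tested in SEM, with the log2 of the mean of the NT and sh2 levels in CPM on the x axis and the log2 fold change of sh2 over NT on the y axis; colours mark calls and black points some named genes. The called points reach further below 0 than above it, as the counts of 232 lower and 26 higher genes at 8-fold or more say.

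The genes at both ends of the response are introduced with the sequence next to their start sites. Each window is the 250 bases before the RefSeq start in GRCh38.p14, 5′ to 3′ on the gene's own strand, for the first 3 genes by fold in each direction whose window ends at the RefSeq gene start and whose first bases also occur in a GENCODE transcript of the gene. The windows of MPDZ, FREM2 and CCSER1, which fell by more than the 3 printed genes, did not meet the last condition and are given by their CG counts only. Capitals mark each CG dinucleotide, the site of DNA methylation in vertebrates. Among the genes that rose, the windows are those of ANXA1 (chr9:73151615-73151864, plus strand), NES (chr1:156677408-156677657, minus strand) and PDPN (chr1:13583507-13583756, plus strand). Among the genes that fell, they are those of PTPRK (chr6:128520600-128520849, minus strand), CLGN (chr4:140427649-140427898, minus strand) and TSPAN5 (chr4:98658612-98658861, minus strand).
ANXA1: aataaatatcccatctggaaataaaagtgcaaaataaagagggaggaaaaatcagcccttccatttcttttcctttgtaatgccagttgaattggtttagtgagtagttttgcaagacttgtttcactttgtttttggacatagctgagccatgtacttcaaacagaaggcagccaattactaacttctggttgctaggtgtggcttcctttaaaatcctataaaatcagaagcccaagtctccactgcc
NES: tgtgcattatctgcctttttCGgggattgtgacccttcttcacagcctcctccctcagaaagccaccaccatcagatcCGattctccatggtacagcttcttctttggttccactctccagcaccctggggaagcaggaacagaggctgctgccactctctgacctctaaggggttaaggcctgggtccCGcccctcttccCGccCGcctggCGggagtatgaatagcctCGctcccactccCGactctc
PDPN: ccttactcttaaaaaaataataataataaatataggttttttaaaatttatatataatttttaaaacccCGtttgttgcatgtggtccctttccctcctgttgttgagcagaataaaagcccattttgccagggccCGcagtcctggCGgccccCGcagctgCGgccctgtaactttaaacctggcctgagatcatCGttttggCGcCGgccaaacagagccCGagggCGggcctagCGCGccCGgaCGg
PTPRK: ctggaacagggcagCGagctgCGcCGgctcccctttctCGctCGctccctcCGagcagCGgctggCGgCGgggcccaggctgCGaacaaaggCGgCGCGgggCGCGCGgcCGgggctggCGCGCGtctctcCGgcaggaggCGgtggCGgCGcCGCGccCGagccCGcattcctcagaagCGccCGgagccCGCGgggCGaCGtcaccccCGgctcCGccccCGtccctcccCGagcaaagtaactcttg
CLGN: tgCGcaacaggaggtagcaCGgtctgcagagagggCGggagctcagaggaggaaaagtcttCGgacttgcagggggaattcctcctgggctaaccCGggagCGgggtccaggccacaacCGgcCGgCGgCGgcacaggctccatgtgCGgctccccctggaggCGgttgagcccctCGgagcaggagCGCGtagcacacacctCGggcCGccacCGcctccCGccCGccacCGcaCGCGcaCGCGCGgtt
TSPAN5: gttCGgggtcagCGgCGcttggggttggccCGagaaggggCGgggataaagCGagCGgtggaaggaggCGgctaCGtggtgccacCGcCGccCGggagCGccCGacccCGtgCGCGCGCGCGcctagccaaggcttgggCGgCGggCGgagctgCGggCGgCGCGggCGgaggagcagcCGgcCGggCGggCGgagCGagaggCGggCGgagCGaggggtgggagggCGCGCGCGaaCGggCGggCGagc

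The windows of ANXA1, NES and PDPN held 0, 8 and 14 CG. Among the genes that fell, the 3 with the largest fold and a window at the gene start, MPDZ, FREM2 and CCSER1, held 17, 9 and 18 CG, and the printed PTPRK, CLGN and TSPAN5 held 38, 26 and 43. The directions overlapped, from 0 to 22 CG in 5 genes that rose and from 9 to 43 in 7 genes that fell, and the 6 printed windows do not stand for the rest. At least 10 CG were in 83.6% of the 10465 windows of genes tested in SEM and in 51.7% of all 27305 windows in the RefSeq table. Short motifs were searched as letters on both strands. GGGCGG, which holds a CG itself, was in every printed window except that of ANXA1 and in 66.3% of the windows of tested genes (42.2% of all windows). TATAAA was in the windows of ANXA1 and PDPN (5.73% of tested genes, 11.2% of all), CCAAT was in that of ANXA1 (35.6% and 33.0%), and TGANTCA was in none of the 6 (3.73% and 6.57%).

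The 12 genes with the largest rise by fold were ANXA1, NES, ANGPT1, RFX8, MICAL2, PDPN, SDC2, TGFB1I1, ENTPD1, PTPRC, AHNAK and ACKR4, with log2 changes from 4.69 down to 2.27. ANXA1 encodes annexin A1, a phospholipid-binding protein induced by glucocorticoids, and had 0.291, 0.0797 and 0.398 CPM with NT and 7.12, 6.18 and 6.8 CPM with sh2 (log2 4.69 ± 0.24, adjusted p = 9.94e-12). NES encodes nestin, an intermediate filament protein of progenitor cells, and went from 1.02, 0.77 and 0.93 CPM to 11.4, 12.1 and 12.2 CPM (log2 3.71 ± 0.14, adjusted p = 2.6e-13). ANGPT1, the ligand of the TIE2 receptor, went from 10.7, 10.6 and 11.4 CPM to 97.5, 116 and 113 CPM (log2 3.31 ± 0.06, adjusted p = 7.04e-18). ANXA1 and NES were close to absent with NT, whereas ANGPT1 was already expressed, and in all 3 the arms lay far apart.

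PTPRC encodes CD45, the receptor phosphatase of white blood cells, and rose from 24.7, 30.9 and 35.5 CPM to 124, 161 and 174 CPM (log2 2.32 ± 0.05, adjusted p = 6.05e-17). PDPN (podoplanin), a mucin-like membrane protein, rose from 2.59, 2.68 and 2.66 CPM to 14.3, 20.5 and 20.4 CPM. SDC2, the heparan sulphate proteoglycan syndecan 2, rose from 7.97, 17.8 and 15.2 CPM to 70.4, 105 and 104 CPM. For all 3 the library of replicate 1 was the lowest of the sh2 arm, and it still lay above every NT library. AHNAK, a very large scaffold protein, had a wide sh2 spread, with 6.75, 8.76 and 11 CPM and 25.7, 52.5 and 56 CPM (log2 2.30 ± 0.19, adjusted p = 0.00023). ENTPD1 (CD39, which breaks down extracellular ATP), MICAL2 (an enzyme that oxidises actin) and TGFB1I1 (a focal adhesion adaptor) rose by 2.55, 2.83 and 2.59 on the log2 scale.

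The 12 genes with the largest fall by fold were MMP16, RNF150, FOXP2, MPDZ, FREM2, CCSER1, PTPRK, NELL2, CLGN, TSPAN5, MAP2 and TRPC1, with log2 changes from -6.61 to -4.85. MMP16, a membrane-bound matrix protease, had 22.9, 25.5 and 27.4 CPM with NT and 0.409, 0.251 and 0.105 CPM with sh2 (log2 -6.61 ± 0.20, adjusted p = 9.4e-13). PTPRK, a receptor tyrosine phosphatase of cell contacts, went from 41.9, 47.7 and 45.9 CPM to 1.17, 1.32 and 1 CPM (log2 -5.29 ± 0.11, adjusted p = 2.72e-17). NELL2, a secreted glycoprotein, went from 18.5, 17.7 and 18.7 CPM to 0.383, 0.564 and 0.554 CPM (log2 -5.21 ± 0.15, adjusted p = 2.93e-15). None of the 3 kept more than a small remainder in any sh2 library, while 50.6% of the NSD2 level remained.

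FOXP2, a forkhead transcription factor, went from 7.07, 8.05 and 7.49 CPM to 0.0766, 0.0941 and 0.158 CPM. FREM2, an extracellular matrix protein, went from 8.32, 12.4 and 10.1 CPM to 0.306, 0.188 and 0.185 CPM. RNF150 had only 1, 0 and 7 reads in the sh2 libraries, so the size of its fold change is uncertain. MAP2 (a microtubule-associated protein of neurons), MPDZ (a junction scaffold), TRPC1 (a cation channel), TSPAN5 (a tetraspanin), CLGN (calmegin, a chaperone of the endoplasmic reticulum) and CCSER1 had 5.26 to 6.43 CPM (CCSER1), 5.12 to 6.93 CPM (TRPC1), 5.1 to 6.21 CPM (CLGN), 6.19 to 6.83 CPM (MAP2), 7.33 to 7.59 CPM (TSPAN5) and 6.69 to 8.49 CPM (MPDZ) with NT, and none of them passed 0.376 CPM in an sh2 library.

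**Figure D3:**
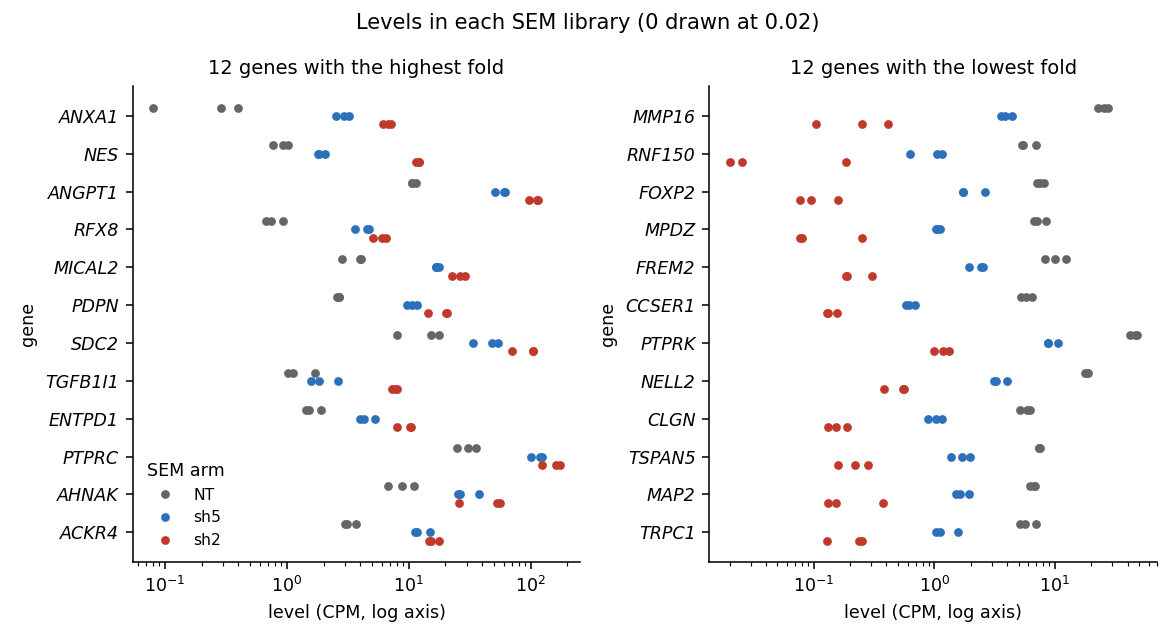
Levels in single SEM libraries (x axis, CPM on a log axis, a level of 0 drawn at 0.02) of the 12 genes with the highest fold (left) and the 12 with the lowest (right), 3 points per arm, sh5 included. All sh2 points of a gene lie above its NT points on the left and below them on the right, a separation that the naming rule itself required.

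The sh5 arm is read against the same NT libraries, so the 2 comparisons share their controls and are given side by side only. MMP16 had 4.41, 3.87 and 3.57 CPM with sh5 (log2 -2.69, against -6.61 with sh2). PTPRK had 8.8, 8.71 and 10.6 CPM (log2 -2.28, against -5.29). NES had 1.82, 2.06 and 1.81 CPM (log2 1.06, against 3.71). In these 3 genes the sh5 libraries lay between the NT and the sh2 libraries, although the NSD2 level was lowest with sh5. Of all 17042 genes, 5591 (32.8%) were called with sh5.

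Several genes, singled out after their values were seen, were called in opposite directions with the 2 hairpins. TCF4, an E protein transcription factor, had 6.31, 6.43 and 7.22 CPM with NT, 1.3, 1.54 and 1.08 CPM with sh2 and 14.5, 12.9 and 16.1 CPM with sh5 (log2 -2.37 and 1.11). MAGI1, a scaffold at cell junctions, had 22.8, 23.6 and 23 CPM, 8.17, 7.96 and 7.41 CPM and 32.9, 32.9 and 33.8 CPM (log2 -1.57 and 0.51). In both genes none of the 3 arms overlapped. PBX3, a cofactor of HOX proteins, fell by 0.20 with sh2 and rose by 0.49 with sh5 on the log2 scale. The difference between hairpins was not tested here.

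Genes that fell had longer spans in the median than genes that rose. Spans, taken as RefSeq gene lengths in GRCh38, were known for 82.6% of the genes tested, with a median of 25.7 kb. The median was 134 kb in the 221 of 232 genes at least 8-fold lower that had a span, 93.7 kb in those 2-fold to 8-fold lower and 46.8 kb in those lower by less. It was 20.9 kb in genes at least 2-fold higher and 23.4 kb in those higher by less. Span also moved with level, and among genes of at least 20 CPM in the NT arm the median was 119 kb for those at least 2-fold lower, 83.7 kb for 30 at least 2-fold higher and 31.6 kb for 3927 not called. The class of genes not called is not given over all levels, since 76.4% of it had a span. Among single genes, CCSER1 spans 1480 kb and PTPRK 552 kb, while TGFB1I1 spans 5.81 kb and NES 8.64 kb. The part of gene span in these changes was not tested.

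Genes changed at least 2-fold had a like neighbour more often than all placed genes did. Of 880 genes at least 2-fold lower with a RefSeq position, 248 (28.2%) had an adjacent tested gene that was also at least 2-fold lower, and 11.8% of all 14057 placed genes had such a neighbour. For genes at least 2-fold higher the share was 15.9% of 308 genes, against 4.28% of all. The longest run of lower genes held 6 (KIF21A, ABCD2, SLC2A13, LRRK2, MUC19 and GXYLT1). A run of 4 held CDH2, DSC2, DSG2 and B4GALT6, and a run of 3 higher genes held DLX1, DLX2 and ITGA6. These runs were picked after their values were seen. Neighbours include overlapping and antisense genes, such as RASSF8 and RASSF8-AS1, which may share reads. The part of such pairs in these shares was not tested.

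In the run of 4, CDH2, the N-cadherin of neural and mesenchymal cells, fell from 63.3, 58.4 and 65 CPM to 4.16, 3.29 and 3.22 CPM (log2 -4.13 ± 0.08, adjusted p = 2.72e-17). The desmosomal cadherin DSG2 fell from 84.8, 89.3 and 97.2 CPM to 20.2, 18.4 and 17.3 CPM (log2 -2.28 ± 0.08, adjusted p = 5.43e-12). Its partner DSC2 had 3.55, 2.55 and 3.82 CPM with NT and at most 0.0627 CPM with sh2. The loss was near complete for DSC2 and CDH2 and partial for DSG2, and B4GALT6, a galactosyltransferase of glycolipids, fell by 3.25 on the log2 scale. In the run of 3, ITGA6, a laminin-binding integrin chain, rose from 22.7, 21.2 and 26.3 CPM to 88.5, 78.4 and 85.4 CPM (log2 1.83 ± 0.08, adjusted p = 1.93e-10). The homeobox genes DLX1 and DLX2 beside it stood at 0.797 to 1.51 CPM and 0.0266 to 0.233 CPM with NT and at 4.89 to 5.62 CPM and 1 to 1.33 CPM with sh2.

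Among abundant transcripts the changes were small in fold. FLNA, which crosslinks actin filaments, rose from 908, 803 and 989 CPM to 1548, 1407 and 1548 CPM (log2 0.73 ± 0.05, adjusted p = 2.38e-10). ANXA2, a calcium-dependent membrane-binding protein, rose from 579, 506 and 528 CPM to 979, 919 and 921 CPM (log2 0.80 ± 0.04). The other genes with the largest rise in CPM were PPP2R5C (a regulatory subunit of protein phosphatase 2A), ACTB (beta-actin), B2M and HLA-B, at log2 0.47, 0.25, 0.44 and 0.80. With sh5, FLNA and ACTB were not called (log2 0.02 and 0.00) and ANXA2 was (log2 0.98).

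TOP2B, a DNA topoisomerase also active outside division, fell from 1206, 1202 and 1221 CPM to 869, 919 and 939 CPM (log2 -0.42 ± 0.04, adjusted p = 2.32e-07), and all 3 sh2 libraries were well under NT. The other genes with the largest fall in CPM were ENO1, PKM, TUBA1B, BCAT1 and RPS6, at log2 -0.19, -0.23, -0.20, -0.22 and -0.13. ENO1, PKM, TUBA1B, RPS6 and ACTB have near-identical pseudogenes or relatives that can share reads, so these small changes are uncertain. ENO1 and RPS6 were not called without the replicate block (adjusted p = 0.0744 and 0.0962). ENO1 and TUBA1B were not called without sh2 replicate 3 (adjusted p = 0.0722 and 0.0699), and RPS6 was not called without NT replicate 1 or 3 or any 1 sh2 library (adjusted p = 0.0594 to 0.235).

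Genes with shared roles were read as counts of called members beside the shares of all genes, 19.3% higher and 18.5% lower. Lysine 36 enzymes and readers gave 7 higher and 6 lower of 24 tested (median log2 0), with upper-quartile scaling 2 higher and 8 lower, and by DESeq2 3 and 6. Of the other NSD methyltransferases, NSD1 had 122, 136 and 121 CPM and 119.5, 137 and 128 CPM and was not called (log2 0.01, adjusted p = 0.904), and NSD3 had 156, 162 and 161 CPM and 142, 143 and 149 CPM and fell (log2 -0.15 ± 0.04, adjusted p = 0.0116). NSD3 was not called without NT replicate 2 or sh2 replicate 1 or 2 (adjusted p = 0.0699, 0.0946 and 0.0739). DNMT3B, a DNA methyltransferase whose PWWP domain reads lysine 36 methylation, rose from 16.6, 19.2 and 20.1 CPM to 30.9, 33.8 and 34.4 CPM (log2 0.82 ± 0.06, adjusted p = 2.36e-09). Its relative DNMT3A fell from 80.4, 79.5 and 83.1 CPM to 69.1, 67.4 and 73 CPM. Of the list, NSD2 and DNMT3B had the largest changes. Among 10 tested PRC2 subunits and lysine 27 demethylases none was higher and 2 were lower, JARID2 (a PRC2 cofactor, log2 -0.42) and RBBP4 (a histone-binding subunit, log2 -0.15), with 0 higher and 3 lower by edgeR at an unadjusted p under 0.05 (45.1% of all genes in either direction) and 0 and 2 called by DESeq2. RBBP4 was not called without the replicate block (adjusted p = 0.0652), or without NT replicate 3, sh2 replicate 1 or sh2 replicate 3 (adjusted p = 0.21, 0.122 and 0.0791).

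Most antigen presentation genes of both classes were higher. Of 17 class II genes, all tested, 14 were higher and none was lower by edgeR and by DESeq2 (median log2 0.44). With upper-quartile scaling 13 were higher and 1 lower, and limma on the partial normalized table called 6 higher and 1 lower of 7. HLA-DQA1 rose from 4.54, 4.99 and 4.28 CPM to 10.6, 12 and 10.7 CPM (log2 1.26 ± 0.10, adjusted p = 9.68e-09) and HLA-DRB1 from 109, 122 and 103 CPM to 166, 177 and 158 CPM (log2 0.58 ± 0.05, adjusted p = 1.58e-08). CIITA, the coactivator of class II genes, and CD74, the invariant chain, rose by 0.36 and 0.26 on the log2 scale. The other 3 class II genes, HLA-DOA, HLA-DOB and RFXAP, were not called, with 1 lower at an unadjusted p under 0.05 by edgeR. Of 21 class I genes tested, 16 were higher and 1 was lower (median log2 0.40), the lower one being the peptide trimming enzyme ERAP1 (log2 -0.11).

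NLRC5, the class I coactivator, rose from 32.9, 31.8 and 31.2 CPM to 79.4, 74.9 and 73.7 CPM (log2 1.24 ± 0.05, adjusted p = 1.58e-12). TAP1, a chain of the peptide transporter, rose from 35.6, 33.1 and 34 CPM to 69, 70.7 and 67.9 CPM (log2 1.01 ± 0.05, adjusted p = 7.19e-12). HLA-B rose from 459.6, 472 and 454 CPM to 793, 852 and 783 CPM (log2 0.80 ± 0.04), and PSMB9, an immunoproteasome subunit, rose by 0.72 on the log2 scale. In each of these genes every sh2 library lay above every NT library, though reads of classical HLA genes can pass between near-identical members. Interferon response genes had no single direction, with 14 higher and 14 lower of 44 tested (median log2 -0.08). OAS2 and GBP1, an antiviral enzyme and a guanylate-binding protein, rose by 0.98 and 0.81, whereas RSAD2 (viperin) was lower, at log2 -1.45.

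Cell contact genes fell in part. Of 22 cadherin superfamily genes tested (54 listed), 11 were lower and 4 higher (median log2 -0.53). Besides CDH2, DSG2 and DSC2, the protocadherin PCDH9 fell from 7.62, 7.49 and 7.78 CPM to 2.91, 2.57 and 2.14 CPM (log2 -1.60 ± 0.13, adjusted p = 1.38e-08), and FAT4, a giant cadherin, from 1.86, 2.18 and 2.12 CPM to 0.102, 0.125 and 0.264 CPM. CDH11, called higher, had overlapping arms (0.931, 0.77 and 1.17 CPM and 1.15, 3.79 and 4.64 CPM). Of 14 synaptic and neural adhesion genes tested (51 listed), 9 were lower and 1, the neurexin NRXN2, was higher (median log2 -1.12). NRCAM fell from 6.37, 9.56 and 6.48 CPM to 0.383, 0.533 and 0.29 CPM (log2 -4.22 ± 0.22, adjusted p = 1.49e-11), NCAM1 (CD56) from 3.78, 4.62 and 5.42 CPM to 0.306, 0.752 and 0.448 CPM (log2 -3.24 ± 0.22), and NLGN4X, a neuroligin, from 24.8, 27.8 and 24.5 CPM to 8.43, 9.91 and 8.55 CPM (log2 -1.53 ± 0.11). All 3 are adhesion proteins known from neurons, and none of their arms overlapped.

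Axon guidance genes moved both ways, 15 higher and 16 lower of 39 tested (median log2 -0.01). The ephrin receptors EPHB3 and EPHB4 rose by 1.26 and 0.87 on the log2 scale, and the netrin receptor NEO1 fell from 28.2, 30 and 32.1 CPM to 12.8, 14.3 and 12.3 CPM (log2 -1.21 ± 0.07, adjusted p = 1.41e-10). Receptor-type tyrosine phosphatases also split, 4 higher and 4 lower of 12 tested (median log2 0.04, and below 0 with upper-quartile scaling). PTPRC and PTPRK, given above, are members. PTPRG fell from 50, 45.4 and 45.3 CPM to 8.25, 6.68 and 7.15 CPM (log2 -2.68 ± 0.07, adjusted p = 2.92e-16), with 42.6, 36.5 and 39.1 CPM in the sh5 arm. PTPRD went from 3.49, 3.29 and 3.51 CPM to 0.0511, 0.0941 and 0.0527 CPM, and PTPRJ rose by 0.65 on the log2 scale.

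Integrins and homing receptors gave 16 higher and 10 lower of 32 tested (median log2 0.36). ITGB2, the shared beta chain of leukocyte integrins, rose from 110.1, 123 and 123 CPM to 205, 224 and 200.1 CPM (log2 0.81 ± 0.05, adjusted p = 1.51e-10). ITGAX (CD11c), one of its alpha partners, rose from 2.33, 4.46 and 2.26 CPM to 14.8, 17.3 and 11.2 CPM (log2 2.26 ± 0.13, adjusted p = 8.62e-11). CD44, the hyaluronan receptor, rose from 66.4, 75.5 and 82.2 CPM to 141, 179.5 and 167 CPM (log2 1.11 ± 0.06). These rises were clear of the NT arm in every library, and ITGA4, the alpha chain of VLA-4, also rose, from 212, 232 and 217 CPM to 317, 326 and 332 CPM (log2 0.55 ± 0.05). Among the 10 lower members was ITGAV (log2 -0.80). Matrix genes split, 9 higher and 12 lower of 30 tested (median log2 -0.11), with the protease ADAM19 rising from 15.7, 15.4 and 15.2 CPM to 49.6, 44.2 and 40.4 CPM and ADAMTS1 falling from 10.5, 10 and 9.8 CPM to 3.57, 3.39 and 2.16 CPM. ADAM19 was not called with sh5 (log2 0.02). Voltage-gated and other potassium channel subunits gave 13 lower and 8 higher of 26 tested (median log2 -0.34). KCNMA1, a calcium-activated potassium channel, fell from 32.7, 43.2 and 40.8 CPM to 11.4, 16.9 and 13.1 CPM (log2 -1.51 ± 0.07), and KCNN4, another, rose from 18, 23.3 and 22.3 CPM to 37.3, 45.6 and 41.9 CPM (log2 0.96 ± 0.07).

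The defining markers of the line were present in both arms. PAX5, the commitment factor of B cells, had 564, 532 and 652 CPM with NT and 558, 571 and 588 CPM with sh2 (adjusted p = 0.699). The arms overlapped, and they did so too for CD79A, HOXA9 and MEIS1 (log2 0.00, -0.02 and -0.10), none of which was called. With upper-quartile scaling MEIS1 was called lower (log2 -0.15).

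B-lineage transcription factors gave 15 lower and 4 higher of 33 tested (median log2 -0.23). IRF4 fell from 141, 155 and 133 CPM to 66.1, 64 and 61.2 CPM (log2 -1.17 ± 0.05, adjusted p = 5.43e-12) while its relative IRF8 rose from 132, 136 and 137 CPM to 265, 273 and 285 CPM (log2 1.02 ± 0.04, adjusted p = 8.71e-13). With NT the libraries of IRF4 and IRF8 each kept to a narrow range, and each gene changed about 2-fold, in opposite directions. SOX4, a factor of B-cell precursors, fell from 245, 257 and 246 CPM to 146, 137 and 148 CPM (log2 -0.81 ± 0.05), and EBF1, a specification factor, from 214, 222 and 239 CPM to 148, 167 and 174 CPM (log2 -0.47 ± 0.04). BACH2, FOXO1 and IKZF1 fell by 1.48, 1.08 and 0.25 on the log2 scale. TCF4, described above, was the member with the largest fall.

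The pre-B-cell receptor list had no single direction, 8 higher and 7 lower of 23 tested (median log2 0; 7 and 8 with upper-quartile scaling), but its parts differed. The surrogate light chain fell: VPREB1 went from 129.5, 109.7 and 106 CPM to 56.8, 53.5 and 52.6 CPM (log2 -1.09 ± 0.09, adjusted p = 1.93e-05), and IGLL1 from 219, 205 and 213 CPM to 95.1, 109.9 and 111 CPM (log2 -1.02 ± 0.07, adjusted p = 9.26e-07). VPREB3, a protein that associates with the receptor during assembly, went from 29.2, 21.2 and 22.4 CPM to 6.77, 8.75 and 6.86 CPM (log2 -1.71 ± 0.12). Of the signalling kinases, PRKCB rose from 10.8, 16.3 and 13.6 CPM to 29.9, 40.8 and 37.1 CPM (log2 1.39 ± 0.07), BLK and BTK rose by 0.44 and 0.35, and FYN fell by 0.64 on the log2 scale.

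Surface antigens gave 9 lower and 4 higher of 23 tested (median log2 -0.15). CD22, an inhibitory coreceptor and antibody target, fell from 107, 115 and 122 CPM to 75.9, 82.1 and 79.5 CPM (log2 -0.54 ± 0.04, adjusted p = 9.76e-09). MS4A1 (CD20), also an antibody target, went from 2.09, 2.02 and 1.7 CPM to 0.102, 0.188 and 0.0264 CPM. CD38 fell by 0.67 on the log2 scale with arms that overlapped (22.9, 14 and 10.4 CPM and 12, 9.66 and 7.65 CPM) and was lower within each replicate number, and with sh5 it rose by 0.42. Without the replicate block CD38 was not called with sh2 (adjusted p = 0.183). CD86, a costimulatory ligand, rose from 3.05, 5.15 and 5.13 CPM to 9.52, 14.4 and 14.2 CPM (log2 1.5).

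Cytokine receptor and JAK-STAT genes gave 12 higher and 6 lower of 25 tested (median log2 0.24). IL4R rose from 10.3, 10.1 and 11.8 CPM to 26.7, 28.4 and 30.3 CPM (log2 1.40 ± 0.07, adjusted p = 2.05e-11) and the signal transducer STAT5A from 16.2, 19.3 and 19.4 CPM to 36, 37.1 and 38.8 CPM (log2 1.02 ± 0.06). IL7R, the growth receptor of B-cell precursors, fell from 328, 322 and 308 CPM to 220.1, 225 and 231 CPM (log2 -0.51 ± 0.05, adjusted p = 3.03e-08), and IL6ST, the receptor chain gp130, from 46.3, 51.8 and 49 CPM to 29.1, 32 and 29.5 CPM. Receptors thus went in both directions, without overlap between arms in any of these 4 genes.

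ERK feedback and immediate early genes gave 9 higher and 8 lower of 30 tested (median log2 -0.05), or 7 and 9 with upper-quartile scaling. FOSL2, an AP-1 subunit, rose from 97.6, 116 and 121 CPM to 312, 355 and 358 CPM (log2 1.61 ± 0.05, adjusted p = 2.34e-14). FOS and JUN varied more between replicate numbers than between arms: FOS had 54.7, 21.4 and 49.2 CPM and 130, 36.1 and 91.6 CPM (log2 0.97 ± 0.10, adjusted p = 6.46e-05), and JUN 82.3, 16 and 25.6 CPM and 54.5, 5.67 and 9.71 CPM (log2 -1.09 ± 0.25, adjusted p = 0.0254). Without the replicate block neither was called (adjusted p = 0.334 and 0.701), and JUN was not called without NT replicate 3, sh2 replicate 2 or sh2 replicate 3 (adjusted p = 0.0817, 0.0999 and 0.0959). SPRY1, a feedback inhibitor of ERK signalling, fell from 9.05, 10.5 and 13 CPM to 2.2, 1.63 and 2.48 CPM (log2 -2.37 ± 0.13), and the ETS factor ETV1 from 7.65, 7.91 and 8.66 CPM to 0.894, 1.35 and 1.29 CPM (log2 -2.80 ± 0.17).

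Stem and progenitor genes gave 7 higher and 5 lower of 16 tested (median log2 0), with the haematopoietic regulator LMO2 rising from 53.2, 56.9 and 51.6 CPM to 148, 157 and 143 CPM (log2 1.46 ± 0.04, adjusted p = 8.15e-15) and the RNA-binding protein LIN28B falling from 20.1, 16.6 and 16.6 CPM to 9.6, 6.08 and 5.8 CPM (log2 -1.34 ± 0.09). KMT2A fusion targets and HOXA genes gave 5 higher and 8 lower of 31 tested (median log2 -0.05), or 3 and 10 with upper-quartile scaling and 6 and 6 of 32 by DESeq2. LGALS1, galectin 1, had the largest called change, from 225, 234 and 280.2 CPM to 488, 542 and 547 CPM (log2 1.09 ± 0.05, adjusted p = 1.67e-12). FLT3, a receptor kinase, was called higher with overlapping arms (log2 0.14), and not without the replicate block (adjusted p = 0.178), nor without NT replicate 3 or any 1 sh2 library (adjusted p = 0.0782 to 0.131).

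Metabolic lists moved by small amounts. Of 25 cholesterol synthesis and uptake genes tested, 16 were lower and 2 higher, PMVK and SCAP (median log2 -0.21). HMGCS1, an early enzyme of the pathway, fell from 483, 524 and 560.2 CPM to 334, 349 and 339 CPM (log2 -0.62 ± 0.05, adjusted p = 4.54e-09). SREBF2, the transcription factor that drives it, fell from 237, 261 and 299 CPM to 172, 212 and 189 CPM (log2 -0.48 ± 0.05). Both falls were under 2-fold, with no overlap between arms.

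Of 32 glycolysis and hypoxia genes tested, 15 were lower and 5 higher (median log2 -0.15). LDHA, lactate dehydrogenase A, fell by 0.23 and PGK1, phosphoglycerate kinase, by 0.29 on the log2 scale. PFKFB4, a regulator of glycolysis, had 84.1, 92.6 and 139.7 CPM and 61.3, 74.5 and 108 CPM, and the growth factor VEGFA 29.4, 33 and 45.7 CPM and 22.9, 24.3 and 31.5 CPM. In both genes replicate 3 was highest in each arm and the arms overlapped. Without the replicate block LDHA, PFKFB4 and VEGFA were not called (adjusted p = 0.417, 0.497 and 0.148), and LDHA was not called without NT replicate 1 or 3 or sh2 replicate 3 (adjusted p = 0.071, 0.0817 and 0.0604).

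Of 34 MYC and ribosome biogenesis genes tested, 22 were higher and 2 lower, NAP1L1 and ODC1 (median log2 0.18). The ribosomal RNA processing factor RRP12 rose from 66.3, 58.5 and 55.3 CPM to 90.6, 74.5 and 75.4 CPM (log2 0.41 ± 0.05, adjusted p = 2.39e-06), and MYC itself was not called (460.1, 543 and 507 CPM and 502, 582 and 533 CPM, adjusted p = 0.118). With upper-quartile scaling the list gave 17 higher and 3 lower (median log2 0.13). Unfolded protein response genes gave 10 higher and 1 lower of 21 tested (median log2 0.12), or 6 higher and 1 lower with upper-quartile scaling. Integrated stress response genes gave 9 higher and 4 lower of 26 tested (median log2 0.04), or 6 and 7 with upper-quartile scaling, which turned the median to -0.01. ASNS, asparagine synthetase, fell from 54, 51.8 and 46 CPM to 38, 43.3 and 27.6 CPM (log2 -0.50 ± 0.07, adjusted p = 5.72e-05).

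Of S phase genes 28.9% were called and of G2 and M phase genes 31.4%, not far from the 37.9% of all genes. Most of the called G2 and M phase genes were lower. S phase genes gave 6 higher and 5 lower of 38 tested (median log2 -0.01), and G2 and M phase genes 2 higher and 9 lower of 35 (median log2 -0.02). With upper-quartile scaling these became 0 higher and 8 lower, and 0 higher and 13 lower. RFC5, a clamp loader subunit, fell from 157, 159.9 and 149 CPM to 114, 105 and 110.1 CPM (log2 -0.51 ± 0.05), and TOP2A was not called (log2 -0.05). Of 56 replication-dependent histone genes tested, 2 were higher and 3 lower (1 and 3 with upper-quartile scaling, 3 and 2 by DESeq2), and of 13 mitochondrially encoded transcripts none was called by edgeR (0 also at an unadjusted p under 0.05, and 0 by DESeq2, with 1 lower at an unadjusted p under 0.05).

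Drug-response lists went both ways. Thiopurine, cytarabine and antifolate genes gave 8 higher and 6 lower of 29 tested, among them the folate carrier SLC19A1 (log2 0.48) and deoxycytidine kinase, DCK (log2 -0.30). Glucocorticoid genes gave 6 higher and 4 lower of 23 tested, or 5 and 7 with upper-quartile scaling, and the receptor gene NR3C1 was not called (log2 -0.05). BCL2 family genes gave 6 higher and 4 lower of 16 tested, but 2 and 4 with upper-quartile scaling and 3 and 4 of 17 by DESeq2. Proapoptotic members went both ways. BAK1, BAD, BID, BIK and BBC3 were called higher by edgeR, at log2 0.21, 0.23, 0.17, 0.64 and 0.26. BMF and BCL2L11 (BIM) fell, BMF from 75.6, 76.2 and 91.7 CPM to 41.5, 46.4 and 51.7 CPM (log2 -0.81 ± 0.05, adjusted p = 1.21e-10) and BCL2L11 from 45.5, 49.9 and 60.6 CPM to 32.1, 39.3 and 35.4 CPM (log2 -0.56 ± 0.08, adjusted p = 2.4e-05). BMF was not called with sh5 (log2 -0.06). The efflux pump ABCB1 went from 2.91, 2.23 and 1.94 CPM to 0.357, 0.47 and 0.185 CPM, in a list of 11 tested ABC transporters with 4 higher and 5 lower. Of 25 p53 targets tested, 8 were higher and 6 lower (6 and 8 with upper-quartile scaling, 6 and 7 of 26 by DESeq2), with SESN1, a stress-induced sestrin, rising from 43.8, 43.9 and 42.3 CPM to 100.4, 112 and 112 CPM (log2 1.31 ± 0.05) and MDM2 falling by 0.35 on the log2 scale. Of 26 mismatch repair and damage signalling genes none was higher and 6 were lower by edgeR, with 2 higher at an unadjusted p under 0.05, none higher and 3 lower by DESeq2, and 1 higher and 6 lower of 24 by limma.

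**Figure D4:**
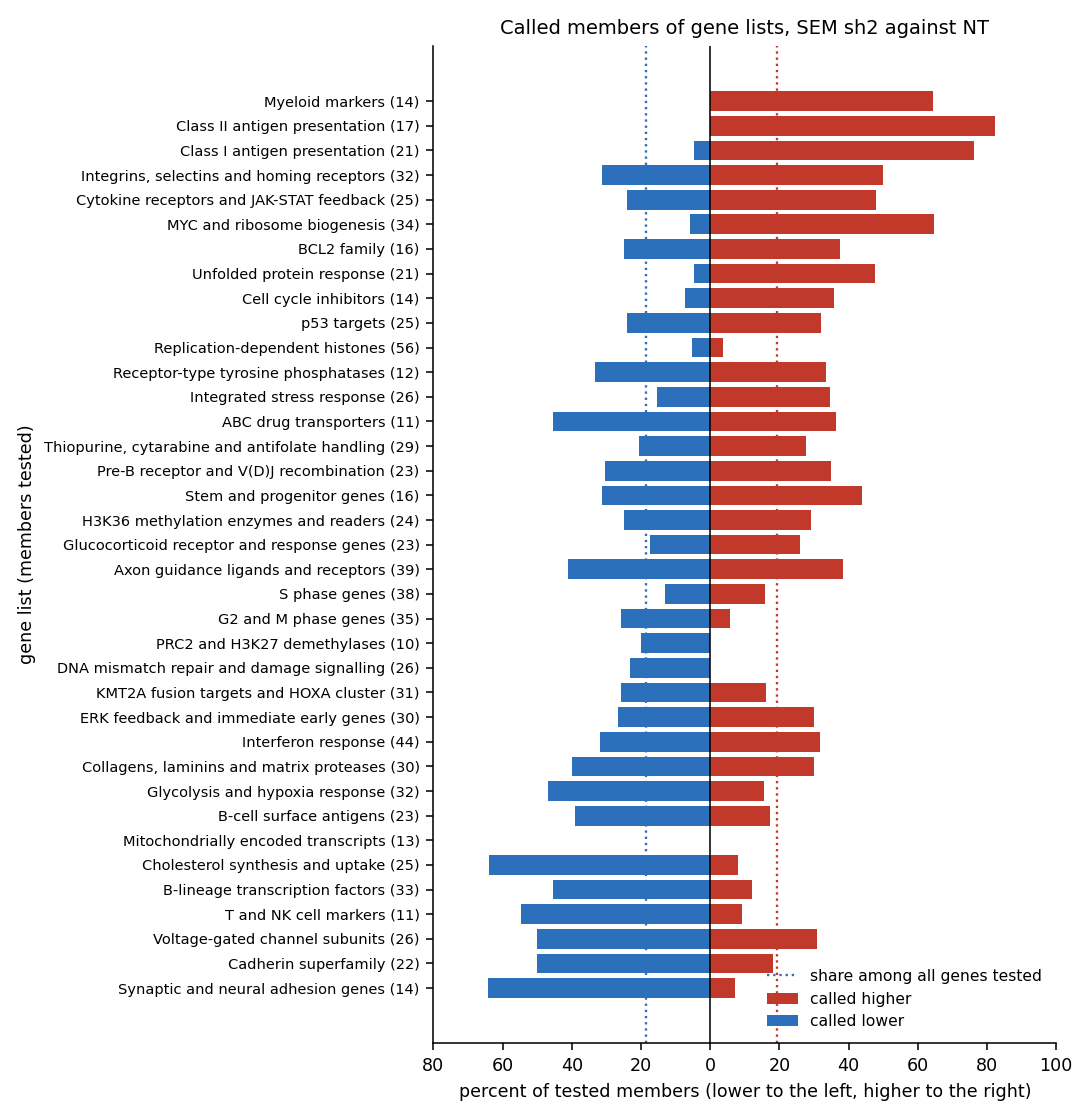
Share of the tested members of each gene list (y axis, number tested in brackets) called higher (red, to the right) or lower (blue, to the left) with sh2 in SEM, in percent, for the lists with at least 10 members tested. Dotted lines mark 18.5% lower and 19.3% higher among all genes; class II and class I presentation reach furthest right (14 of 17 and 16 of 21), and synaptic and neural adhesion and cholesterol genes furthest left (9 of 14 and 16 of 25).

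Some markers of other cell types moved with the sh2 arm, and in bulk RNA fewer cells of a type and less RNA per cell cannot be told apart. Of 14 myeloid markers tested (31 listed, 2 of them also in another list), 9 were higher and none lower by edgeR (0 lower also at an unadjusted p under 0.05), against 6 and 0 by DESeq2, and the summed level of the list went from 171 to 186 CPM up to 286 to 343 CPM. CSF1R, the receptor of macrophage colony-stimulating factor, rose from 12.8, 16.5 and 18.8 CPM to 32, 46 and 43.3 CPM (log2 1.32 ± 0.07, adjusted p = 1.23e-11), and VCAN, a proteoglycan, from 18.1, 28.6 and 34.5 CPM to 74.2, 109.6 and 127 CPM (log2 1.93 ± 0.14, adjusted p = 7.51e-05). Several defining markers were near absent: ELANE and FCN1 had no read in the 6 libraries, CD14 and MPO had at most 0.0627 and 0.188 CPM, and 18 of 31 were under 1 CPM in all 6. LYZ was low but had 28 to 59 reads in each of the 6 (at most 1.69 CPM).

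Of 11 T and NK markers tested (33 listed, none in another list), 6 were lower and 1, BCL11B, was higher, and the summed level went from 511 to 519 CPM down to 364 to 384 CPM. LCK and ZAP70, kinases of T-cell receptor signalling, fell from 110.4, 99.4 and 104 CPM to 46, 51.1 and 46.1 CPM (log2 -1.14 ± 0.08, adjusted p = 1.26e-06) and from 108, 116 and 113 CPM to 54.4, 55.1 and 55.4 CPM (log2 -1.04 ± 0.05, adjusted p = 4.46e-12). CD3D, CD3E and CD3G had at most 0.0531 CPM, and 22 of 33 markers were under 1 CPM in all 6 libraries. Of 21 erythroid and megakaryocytic markers 3 were tested, 2 of them lower, GP9 and ITGA2B, and 8 had no read, HBB among them (summed level 7.16 to 9.16 CPM and 4.83 to 6.65 CPM). By DESeq2 1 of 5 was lower and 0 higher. ITGA2B was not called by DESeq2 (adjusted p = 0.0923) or by edgeR without the replicate block (adjusted p = 0.0588). It also lost the edgeR call without NT replicate 2 or any 1 sh2 library (adjusted p = 0.0514 to 0.113). Of 21 stromal, endothelial and epithelial markers with a count, 4 were tested, 2 of them higher, PDGFRB and VWF (1 with upper-quartile scaling), with EPCAM at most 0.0531 CPM (summed level 106 to 129 CPM and 155 to 163 CPM). By DESeq2 1 of 8 was higher and 1 lower. VWF was not called by DESeq2 (adjusted p = 0.206), nor by edgeR without the replicate block (0.0769) or without the filter on low counts (0.06). It also lost the edgeR call without NT replicate 1 or 3 or any 1 sh2 library (adjusted p = 0.0968 to 0.209). The part of such markers in the changes of ITGAX, ITGB2 or the class II genes was not tested.

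The same hairpin gave fewer calls in the other lines. NSD2 itself was lowered unevenly there: RS411 had 289, 323 and 304 CPM with NT and 158, 156 and 255 CPM with sh2, and RCH had 330.4, 345 and 352 CPM with NT and 139, 203 and 251 CPM with sh2. The arms did not overlap, but sh2 replicate 3 of RS411 and the 3 sh2 libraries of RCH stood apart from one another, and the part of this in the counts below was not tested. NSD2 had a log2 change of -0.75 in RS411 (adjusted p = 0.0585, not called) and of -0.81 in RCH (adjusted p = 0.00926). In RS411 2495 of 17165 genes (14.5%) were called, and in RCH 1623 of 17468 (9.29%), on libraries of 21941718 to 67796769 reads. Called higher and lower were 7.71% and 6.83% in RS411 and 5.63% and 3.66% in RCH, and 29.6% and 26.8% of the genes had an unadjusted p under 0.05. Without the replicate block the counts were 286 and 239, against 4760 in SEM. They were 731 to 1260 without RS411 NT replicate 1 or 2 or sh2 replicate 1 or 2, 415 to 727 without any 1 RCH NT library or sh2 replicate 2, and 4516 without RCH sh2 replicate 1. Genes called higher in both SEM and RS411 were 23.8% of the SEM list and 59.5% of the RS411 list, and genes called lower in both were 25% and 64.1%. For RCH the shares were 9.49% and 38.7% (higher) and 9.04% and 47.3% (lower). Of the genes called higher in RS411, 6.93% were called lower in SEM, and of those called higher in RCH, 19.7% were. Among all genes tested in SEM, 19.3% were called higher and 18.5% lower, and the 19.7% for RCH is near the latter. The shares of the SEM list are to be read beside the shares called in RS411 and RCH above. IRF8 was called higher in all 3 lines (log2 1.02 in SEM, 0.87 in RS411 and 1.03 in RCH), as were ITGB2 (0.81, 0.52 and 0.92) and STAT5A (1.02, 0.73 and 0.56).

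Whether the response in SEM differed from the mean of RS411 and RCH was tested in 1 edgeR fit of 18 libraries. The difference was called for 1487 of 19573 genes (7.60%), with 573 above (2.93%) and 914 below (4.67%) the other lines. At an unadjusted p under 0.05 the share was 22.7%. Against RS411 alone 2.53% were called (1.04% above, 1.49% below; 12.7% unadjusted), and against RCH alone 17.8% (8.16% above, 9.61% below; 31.4% unadjusted). For NSD2 the difference from the mean was not called (log2 -0.24, adjusted p = 0.545). Of 6442 genes called in SEM and tested in this fit, 1188 differed in the direction of the SEM change and 31 against it. The call and the difference rest on the same SEM libraries. Choosing genes by the call therefore favours the SEM direction, and nothing is read from this split. The count moved with single libraries: it was 513 to 564 without any 1 SEM library, 937 to 986 without RS411 NT replicate 1 or 2 or sh2 replicate 1, 3716 without RCH NT replicate 1 and 3681 without RCH sh2 replicate 1. Without the replicate block it was 715.

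STOM (stomatin, a membrane protein) rose in SEM from 52.5, 50.9 and 53.8 CPM to between 100 and 102 CPM with sh2, and its response lay 1.11 above the other lines on the log2 scale (adjusted p = 2.06e-05). CPT1A, which brings fatty acids into mitochondria, was called higher in all 3 lines, with log2 2.04 in SEM, 0.74 in RS411 and 0.83 in RCH (difference 1.24, adjusted p = 3.85e-05). CSF1R rose in SEM and fell in RCH (log2 1.32 and -1.06). SERINC2 fell in SEM and rose in RCH (log2 -1.06 and 2.14). BACH2, a repressor of plasma cell differentiation, fell in SEM from 12.8, 15.7 and 13.4 CPM to 3.83, 6.08 and 5.38 CPM and had a difference of -1.74 (adjusted p = 1.96e-05).

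Among genes described above, the response also differed from that mean for IRF4 (difference -1.22, adjusted p = 3.85e-05), VPREB1 (-1.06, 7.88e-05), IGLL1 (-1.04, 5.21e-05), FOSL2 (1.17, 0.000109), LMO2 (1.2, 7.48e-05) and NLRC5 (1.09, 0.000107). The difference was not called for IRF8 (0.05, 0.951), HLA-DRB1 (0.03, 0.935), CIITA (0.13, 0.32) or HMGCS1 (-0.16, 0.645). MMP16, FOXP2 and FREM2 were too low to be tested within RS411. In the joint fit FOXP2 differed (log2 -6.15, adjusted p = 0.00705) and MMP16 was not called.

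**Figure D5:**
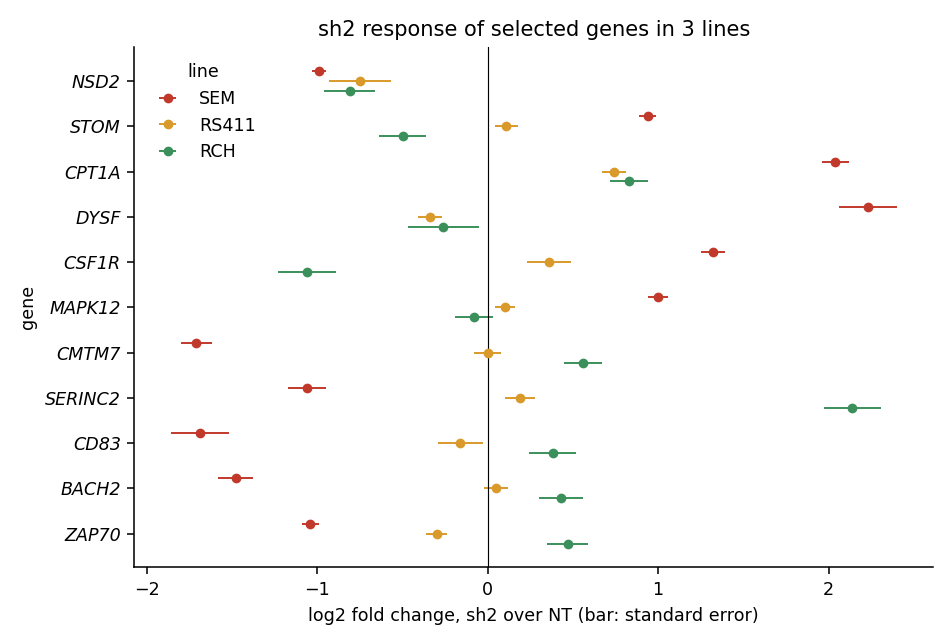
Log2 fold change of sh2 over NT (x axis) in SEM, RS411 and RCH for NSD2 and the 10 genes named from the difference between lines (y axis), with standard errors as bars. NSD2 is at -0.99, -0.75 and -0.81 in the 3 lines, and in the other 10 genes, chosen for this difference, the SEM point stands apart from both others.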

How the data were processed

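Total RNA was extracted with RNeasy kits, depleted of ribosomal RNA, made into stranded TruSeq libraries and sequenced to 54-base reads, per the labels' protocols. Trimmomatic, STAR, featureCounts and hg19 are named in the submitters' processing notes; the sources used here state neither versions nor whether counting used strand, so overlapping and antisense genes may share reads. The deposited tables hold raw counts per gene for each line. The authors' normalized SEM signal table equals these counts times 1 factor per library and holds 16383 rows; it served an alternative only. Rows that carry dates in place of gene names (27, 0.23% of SEM reads) were left out, and no other column of per-sample values was set aside (0). WHSC1 and WHSC1L1 are written NSD2 and NSD3.

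Counts of the 9 SEM libraries were fitted in edgeR 4.0.16 (R 4.3.3; TMM factors, filterByExpr, robust quasi-likelihood test) with replicate number as a block and arm, and calls were made at a Benjamini-Hochberg adjusted p under 0.05. The labels number the replicates and do not state a pairing. In SEM, deviations from arm means correlated at 0.19 to 0.31 between same-numbered NT and sh2 libraries. Between NT and sh2 libraries of different number they correlated at -0.21 to 0.01. Deviations within an arm sum to 0, so these lower values are not independent of the first. Same-numbered SEM pairs with sh5 gave at least 0.12, and NT and sh2 of RS411 gave 0.24 to 0.25. Those of RCH gave -0.07 to 0.17, which does not meet the minimum of 0.1, but the block was kept there too. Lines were compared in 1 fit of 18 libraries with the block within line. Genes were named by rule: the 12 with the highest and lowest fold and the 6 per direction with the largest CPM difference, among called genes of at least 5 CPM in 1 arm whose arms did not overlap; up to 4 per list; and 5 per direction for the difference between lines. List members also served as examples. Members and the 39 lists were chosen with earlier results of these data known. The scripts were tested on simulated data. Alternatives used DESeq2 1.42.0, limma 3.58.1 (log2 of the normalized value plus 1 or 0.1, mean of at least 10), other scalings and filters, and single libraries left out. Promoter windows and spans come from RefSeq tables for GRCh38.p14, matched by symbol (14085 of 17042 genes with a span, 10465 with a window). Since many genes lacked a window, classes of genes were not compared on promoter sequence. Some genes are not reported here.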

Additional observations from a re-analysis of the deposited data

Results flagged for a closer look

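Of 47 genes named by fold, by CPM difference, by the test between lines or as the target, 23 had an sh2 response in SEM that differed from the mean of RS411 and RCH in the joint edgeR fit (adjusted p under 0.05), 16 above and 7 below. Over all genes of that fit the share was 7.60%. The count of 23 is favoured by how the genes were chosen. Of the 47, 10 were chosen by this test, and the others except NSD2 by their change in the same SEM libraries. On the log2 scale the difference among genes with a large rise in SEM was 3.80 for RFX8, 3.03 for MICAL2, 2.06 for PDPN, 1.85 for TGFB1I1, 1.52 for ENTPD1, 0.81 for AHNAK and 0.58 for PTPRC. Among abundant genes it was 0.91 for ANXA2, 0.75 for FLNA, 0.65 for HLA-B and 0.41 for ACTB. Among genes with a large fall it was -6.15 for FOXP2 and -3.60 for PTPRK. Among genes named from this test it was 2.52 for DYSF, 1.65 for CSF1R, 1.24 for CPT1A, 1.11 for STOM, 0.97 for MAPK12, -2.26 for SERINC2, -2.01 for CMTM7, -1.81 for CD83, -1.74 for BACH2 and -1.16 for ZAP70, and these 10 were chosen for that difference. Several of these are differences from a mean of unlike lines. PTPRC rose by more in RCH than in SEM (log2 3.41 and 2.32) and was not called in RS411 (log2 0.09). AHNAK had log2 changes of 2.34 in RCH and 2.30 in SEM (difference from RCH alone -0.06, adjusted p = 0.896), and for ENTPD1 the difference from RCH alone was not called (0.74, adjusted p = 0.22). RFX8 was too low to be tested within RS411 or RCH, with mean levels of 0.154 and 0.0786 CPM (NT and sh2) in RS411 and 0.0225 and 0.0117 CPM in RCH, so the size of its difference is uncertain, and from RCH alone it was not called (adjusted p = 0.125). From RS411 alone the difference was not called for TGFB1I1, FOXP2, PTPRK or ACTB (adjusted p = 0.088, 0.204, 0.239 and 0.423), and FOXP2 was too low to be tested within RS411.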

How the results depend on the processing

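With the replicate block, edgeR called 6455 genes in SEM, and without it 4760. The other settings gave 4988 (at least 5 CPM in 3 libraries) to 6701 (the 6 NT and sh2 libraries alone), with 5254 by DESeq2, and single libraries left out gave 5071 to 5849. Requiring a change of at least 2-fold left 1380. Without the replicate block the counts were 3623 for sh5 (5591 with it), 286 for RS411 (2495), 239 for RCH (1623) and 715 for the difference between lines (1487). Without a filter on low counts RCH gave 3183 and the difference between lines 2416. Leaving out 1 library gave 4362 to 5289 for sh5, 731 to 3440 for RS411, 415 to 4516 for RCH and 513 to 3716 for the difference between lines. The NSD2 level differed by -169 CPM between arms, and by -174 to -158 CPM with 1 library left out. In these refits the cause of a changed count was not tested beyond fewer samples or other genes entering.

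Of the log2 changes of single named genes under each setting, 3340 kept direction and call, 120 lost the call, 2 gained it (MEIS1 at -0.15 and -0.13 with upper-quartile factors and with the stricter filter) and 18 changed sign. The sign changes were of genes never called, among them CD79A (0 without the replicate block and with RLE factors, -0.01 in the 6 libraries alone, -0.05 with upper-quartile factors, -0.03 with the stricter filter), NSD1 (-0.04 and -0.02 with the last 2 settings) and, with single libraries left out, CD79A (-0.04 to 0.04), NSD1 (-0.02 to 0.05), HOXA9 (-0.06 to 0.02) and PAX5 (-0.10 to 0.05). For the difference between lines, all 242 values of the genes named from it and of NSD2 kept direction and call, and NSD2 stayed not called. At these depths genes of a few reads, such as RNF150 and DSC2 with sh2, have an uncertain fold.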
